A study of Danio rerio with 6 samples.

Results

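Endothelins are short peptides that cells cut from longer precursors and release, and that act on neighbouring cells through G protein-coupled receptors. An endothelin-converting enzyme makes the final cut, and the A-type and B-type receptors then signal mainly through Gq-class proteins and phospholipase C. In zebrafish the system is best known for patterning the lower jaw (edn1, ednraa and ednrab) and for building the pigment pattern (ednrba, edn3b), and in mammals for setting vessel tone.

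The genes described here are 8 of the 32266 genes in a table of RNA-sequencing counts from the larval zebrafish fin fold: the B-type receptor genes ednrbb and ednrba, the A-type receptor genes ednraa and ednrab, the ligand genes edn1, edn2 and edn3b, and the converting enzyme gene ece1. They were matched by gene name, each to a single row, and the table places ednrbb on chromosome 9, ednrba and ednraa on 1, ednrab and edn3b on 23, edn1 and edn2 on 19, and ece1 on 11. The receptor ednrbb was selected on the size of its change in the comparison below, and the other 7 were chosen as its family and pathway partners with earlier results of the same data known. Their values in this comparison are therefore a description, and no test is given for them.

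The amputated group held 3 libraries from fin folds of 3-day-old larvae taken 4 h after the fin was cut, and the uncut group held 3 libraries from intact folds of the same age. The sample descriptions of both groups name DMSO, a solvent, and no drug. No strain, transgene or number of larvae per library is given in the sources used here, nor whether replicates came from separate larvae, so that p-values measure the spread between these libraries, which may be technical. The question was how the wounded fold differs from the intact one.

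Total counts ran from 18595152 to 21128093 in amputated and from 11216130 to 23019556 in uncut libraries. Levels are given as CPM, counts scaled to a common library size after TMM normalization, and a single read was worth 0.0436 to 0.0972 CPM. The first principal component, with 72.3% of the variance, parted the groups, and uncut replicate 1 stood apart on the second, with 12.1%. The fold's own markers were abundant: 13 fin mesenchyme genes summed to 26942 to 31662 CPM in amputated and 63720 to 66310 CPM in uncut libraries, mostly from the actinodin genes and1 and and2, and tp63, a defining gene of basal epidermis, had 127 to 140 CPM and 175 to 199 CPM. A change here means a change relative to the bulk of genes, since scaling by library totals alone moved the median log2 fold change of all tested genes to 0.26 (0.003 with TMM). In this tissue-wide RNA, fewer cells of a type and less RNA per cell cannot be told apart.

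The B-type receptor gene ednrbb was almost silent in intact folds and well expressed after wounding. It had 338, 425 and 444 reads in amputated replicates 1, 2 and 3, against 7, 6 and 5 in uncut replicates 1, 2 and 3. On the CPM scale this was 16.7, 20.4 and 19.4 in amputated libraries, against 0.461, 0.279 and 0.486 in uncut libraries. The groups were far apart, with the lowest amputated library above 16 CPM and the highest uncut library below 0.5 CPM.

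The mean of ednrbb was 18.8 ± 1.90 CPM after amputation and 0.41 ± 0.11 CPM in uncut folds (SD, n = 3 each). The fitted log2 fold change was 5.59 ± 0.22 (SE), 48.1-fold. This SE was derived from the test against no change, and can be too small where a large change rests on few reads. By signed log2 fold change, from the largest rise down, ednrbb ranked 8 of 17883 tested genes. It was selected on this value, so the rank is a description only. The uncut level rests on 18 reads in all, whose exact Poisson 95% interval was 10.7 to 28.4, and the amputated level on 1207 reads (1140 to 1277). Intervals on reads cover counting error only. Among uncut libraries the coefficient of variation of ednrbb was 27.6%, below the 41.2% that counting alone gives, and among amputated libraries it was 10.1%, against 5.02% from counting. In the authors' deposited table, which gives uncut over amputated, the log2 fold change of ednrbb was −4.77 ± 0.26 (SE). A refit with DESeq2 gave 5.60, amputated over uncut, so the deposited change was smaller in size. The reason for that gap was not tested.

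**Figure D1:**
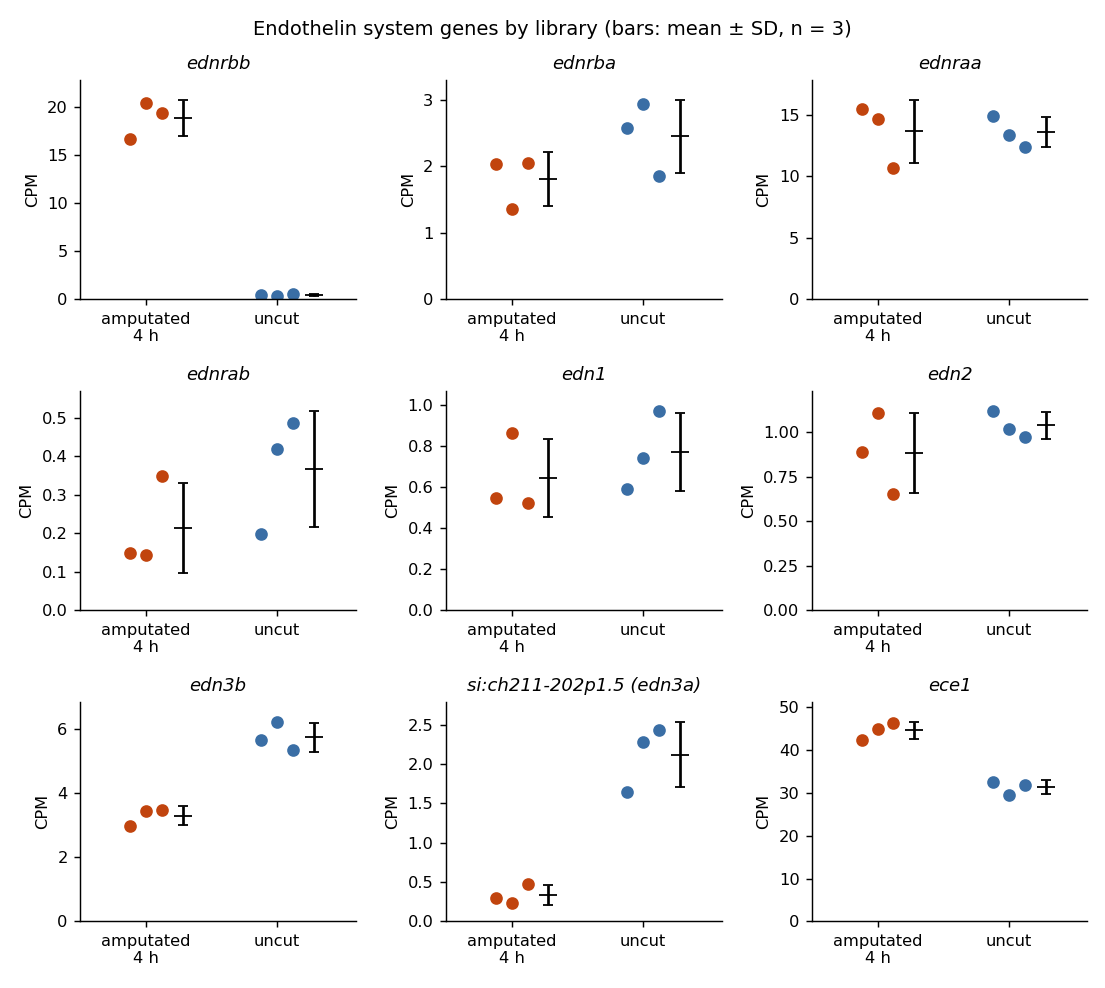
Level of each endothelin gene in CPM (vertical axes, from 0, on a scale of its own per gene) in 3 amputated (left, orange) and 3 uncut (right, blue) libraries, with mean ± SD beside the points. The amputated and uncut points lie apart for ednrbb, edn3b, si:ch211-202p1.5 (edn3a by its RefSeq synonym) and ece1. They overlap for ednrba, ednraa, ednrab, edn1 and edn2. The share of all genes whose points lie apart was not counted, so nothing is read from how many lie apart here. Of all tested genes 40.4% were called, which is a different measure.

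The other B-type gene, ednrba, known in zebrafish from the pigment mutant rose, did not share this pattern. It had 2.03, 1.35 and 2.05 CPM in amputated replicates 1, 2 and 3, against 2.57, 2.93 and 1.85 CPM in the uncut replicates. The groups overlapped, because uncut replicate 3 was below amputated replicates 1 and 3. The log2 fold change of ednrba was −0.47 ± 0.26 (SE), on 116 amputated and 121 uncut reads.

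Pigment cell markers were set beside ednrba. Of 11 melanophore genes tested, 7 fell (63.6%) and none rose, while 19.6% of all tested genes fell. Several of these melanophore calls lay near the threshold, with edgeR adjusted p up to 0.0491. The median log2 fold change of these melanophore genes was −0.41. It was −0.47 for fin mesenchyme, −0.48 for superficial epidermis and −0.32 for basal epidermis genes, so the fall was not particular to pigment cells. The summed level of the melanophore list was 144.1 to 156.3 CPM in amputated and 177.8 to 251.1 CPM in uncut libraries. Of 5 iridophore genes tested, 3 fell and 1, ltk, rose, or 80%, against 40.4% of all tested genes. The iridophore sums, 64.9 to 103.8 CPM in amputated and 80.7 to 86.5 CPM in uncut libraries, overlapped. In the melanophore list kita, a receptor kinase gene of pigment cells, fell by 1.03 ± 0.13 (SE) on the log2 scale with an edgeR adjusted p of 8.5e-05. The calls of the iridophore genes pnp4a, mlphb and gpnmb, and of tyrp1b of melanophores, were each lost in at least 2 of the alternatives tried. The part of pigment cells in the values of ednrba was not tested.

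The A-type gene ednraa, which acts in jaw patterning, was read at a like level in both groups. It had 15.5, 14.7 and 10.7 CPM in amputated libraries, against 14.9, 13.4 and 12.4 CPM in uncut libraries, and its means were 13.7 ± 2.57 CPM and 13.6 ± 1.23 CPM (SD, n = 3 each). The log2 fold change of ednraa was 0.00 ± 0.16 (SE). The spread of ednraa among amputated libraries, at 18.8%, was above the 5.92% of counting, with replicate 3 the lowest.

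The second A-type gene, ednrab, was at the edge of detection, with 3, 3 and 8 reads in amputated libraries, against 3, 9 and 5 in uncut libraries. It did not pass the filter on low counts, so no fold change was fitted, and a difference between groups could not be assessed.

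The change in ednrbb altered the make-up of the receptor reads. Of all reads on the 4 receptor genes, ednrbb took 48.6% (Wilson 95% interval 44.9 to 52.3), 55.8% (52.2 to 59.3) and 59.6% (56.0 to 63.1) in amputated replicates 1, 2 and 3. In uncut replicates 1, 2 and 3 its share was 2.55% (1.24 to 5.16), 1.63% (0.75 to 3.52) and 3.18% (1.37 to 7.24). The share of ednraa was 33.0% to 45.1% in amputated and 78.7% to 82.2% in uncut libraries, and that of ednrba 3.67% to 6.31% and 12.1% to 17.2%. Shares of reads also depend on transcript length, which the files do not give, so they describe the difference between libraries and not which receptor is more abundant.

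**Figure D2:**
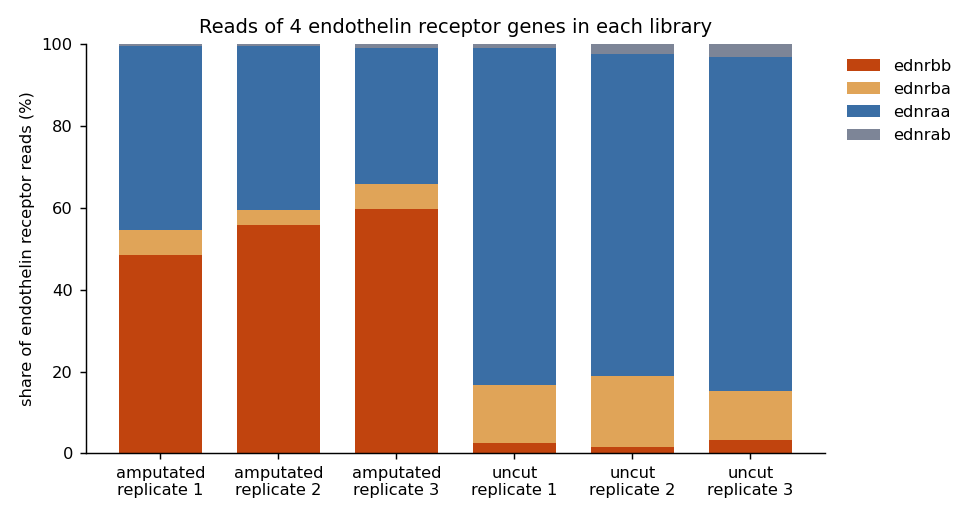
Share of the reads on 4 endothelin receptor genes that fell on each gene (vertical axis, %), in amputated replicates 1 to 3 (left) and uncut replicates 1 to 3 (right). The ednrbb part is 48.6% to 59.6% of the amputated bars and 1.63% to 3.18% of the uncut bars.

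Summed over the 4 receptor genes, the level was 34.5, 36.6 and 32.5 CPM in amputated libraries, against 18.1, 17.1 and 15.3 CPM in uncut libraries. Without ednrbb the sum was 15.7 ± 2.34 CPM after amputation and 16.4 ± 1.48 CPM in uncut folds (SD, n = 3 each). The 2.05-fold difference in the receptor sum thus sat in ednrbb, and the sum of the other 3 receptor genes overlapped between groups.

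Ligand genes were read at low levels. None was called higher after wounding, but only 20.8% of all tested genes were, so nothing is read from that count. The gene edn1, which in zebrafish patterns the lower jaw, had 0.545, 0.865 and 0.523 CPM in amputated libraries, against 0.593, 0.744 and 0.972 CPM in uncut libraries. The groups of edn1 overlapped, and its log2 fold change was −0.22 ± 0.37 (SE). The gene edn2 had 0.891, 1.11 and 0.654 CPM in amputated libraries, against 1.12, 1.02 and 0.972 CPM in uncut libraries. Its groups overlapped too, with a log2 fold change of −0.24 ± 0.32 (SE). With 41 and 35 reads over the groups for edn1, and 56 and 49 for edn2, moderate changes in either direction could have been missed. What size of change was detectable was not computed. With library totals alone both signs turned, to 0.03 for edn1 and 0.01 for edn2.

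The gene edn3b, an endothelin 3 gene that zebrafish iridophores need, was lower after amputation. It had 2.97, 3.46 and 3.49 CPM in amputated libraries, against 5.67, 6.23 and 5.35 CPM in uncut libraries. The groups of edn3b did not overlap, and its log2 fold change was −0.80 ± 0.17 (SE), 1.75-fold lower.

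A further ligand gene, taken here as the paralog of edn3b, was not in the set of 8 genes. It was tested, but its list too was chosen with earlier results of these data known. This gene is listed as si:ch211-202p1.5 and carries EDN3a among its synonyms in RefSeq (assembly GRCz12tu). It had 6, 5 and 11 reads in amputated libraries, against 25, 49 and 25 in uncut libraries, or 0.297, 0.24 and 0.48 CPM against 1.65, 2.28 and 2.43 CPM. The highest amputated library was below the lowest uncut library. The gene si:ch211-202p1.5 fell by 2.60 ± 0.35 (SE) on the log2 scale, with an edgeR adjusted p of 0.00011, and was lower in 3 of 3 amputated libraries. The deposited human orthologue column names EDN1 for this row. Both sources thus place it among the endothelins, and that it is an endothelin 3 gene rests on the RefSeq synonym alone.

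Together the 4 ligand genes summed to 5.17 ± 0.49 CPM after amputation and 9.68 ± 0.63 CPM in uncut folds (SD, n = 3 each), a ratio of 0.535. For edn1 and edn2 alone the sums were 1.53 ± 0.40 CPM and 1.81 ± 0.12 CPM, and overlapped. Of the ligand reads, si:ch211-202p1.5 held 4.24% to 9.32% in amputated and 18.2% to 25% in uncut libraries, while edn3b held 61.0% to 67.8% and 55.0% to 62.8%.

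The converting enzyme gene ece1, whose membrane-bound protease releases the active peptide, was modestly higher. It had 42.3, 44.9 and 46.2 CPM in amputated libraries, against 32.5, 29.4 and 31.9 CPM in uncut libraries. The groups of ece1 did not overlap, and its log2 fold change was 0.51 ± 0.09 (SE), 1.42-fold. By the deposited coordinates the span of ece1 overlaps that of alpl, an alkaline phosphatase gene. The coordinates do not show whether exons overlap, nor do the sources used here say that strand was kept. Whether reads of both genes were mixed is therefore not known. The level of alpl was 47.9 ± 1.23 CPM after amputation and 44.9 ± 1.64 CPM in uncut folds (SD, n = 3 each), and it was not called (log2 fold change 0.09 ± 0.08, edgeR adjusted p = 0.394). With library totals alone alpl was called higher, by 0.35 (edgeR adjusted p = 0.00439). None of the other 7 genes overlaps a listed gene.

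In the fit across all genes, 7 of the 8 were tested, and 2 (ednrbb and ece1) were past the threshold upward and 1 (edn3b) downward, at a Benjamini-Hochberg adjusted p under 0.05. Of all tested genes 20.8% were called higher and 19.6% lower, 40.4% in all. Since this same comparison chose the set, nothing is read from its count.

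The genes beside ednrbb on chromosome 9 had far smaller fold changes, which was likely beforehand, since ednrbb was selected on the size of its change. The table places ednrbb at 54260019 to 54277697 on that chromosome, in a genome build that the sources used here do not name. On one side lect1, which ends 53.2 kb away, had 144.7 ± 5.06 CPM after amputation and 158.9 ± 11.9 CPM in uncut folds (log2 fold change −0.13 ± 0.08, edgeR adjusted p = 0.21). On the other side cog3, a Golgi trafficking gene that starts 25.4 kb away, had 33.0 ± 0.47 CPM and 29.5 ± 1.32 CPM (SD, n = 3 each; 0.16 ± 0.08, edgeR adjusted p = 0.156). With library totals alone cog3 was called higher, by 0.41 (edgeR adjusted p = 0.00254). Farther out si:ch211-199f5.1 was higher by 0.47 ± 0.16 (edgeR adjusted p = 0.0302), a call lost without amputated replicate 1 (0.142), amputated replicate 3 (0.074), uncut replicate 2 (0.135) or uncut replicate 3 (0.0682). The gene mid1 was at −0.28 ± 0.29 (edgeR adjusted p = 0.474), and passed downward only without uncut replicate 1 (0.0131). The remaining 2 of the 6 nearest listed genes, pcdh8 and the microRNA gene CU914164.1, had too few reads to test.

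The genes whose profiles over the 6 libraries were most like that of ednrbb were fn1b, tinagl1, junba, fgf20a, gcga and lect2l. Likeness was the Euclidean distance between log2(CPM + 1) values centred on the uncut mean, and it was 0.30 for fn1b (a fibronectin), 0.34 for tinagl1, 0.46 for junba (an AP-1 factor), 0.48 for fgf20a (a fibroblast growth factor), 0.59 for gcga (glucagon) and 1.04 for lect2l. All of these rose in the same libraries by construction of the measure, and it is a description with no test. The fitted log2 fold change was 3.79 ± 0.10 (SE) for fn1b and 3.89 ± 0.13 (SE) for tinagl1, below that of ednrbb. The pseudocount of 1 CPM enters only the measure of likeness. There it shortens the rise of a near-silent gene, so that genes with smaller fitted changes can lie nearest. Among these 6, gcga was the nearest to ednrbb in mean level, at 20.7 ± 5.17 CPM after amputation and 0.43 ± 0.39 CPM in uncut folds (SD, n = 3 each).

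**Figure D3:**
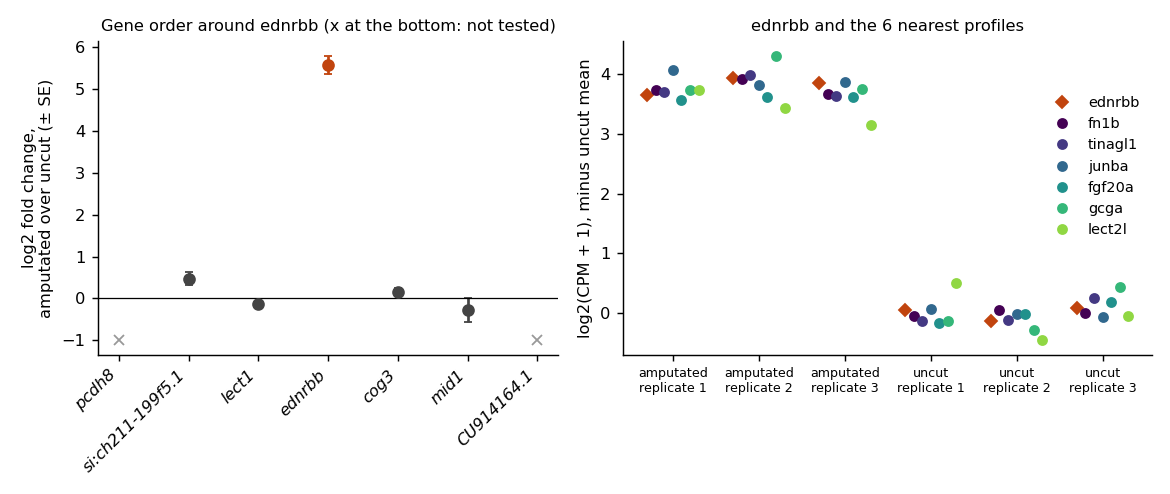
Left, log2 fold change, amputated over uncut, ± SE of ednrbb (5.59) and the 3 listed genes on each side of it in chromosomal order, with genes too low to test marked at the bottom. Right, log2(CPM + 1) minus the uncut mean in each of the 6 libraries for ednrbb (diamonds) and the 6 genes nearest to it, which all lie near 0 in uncut libraries and above 3 in amputated libraries.

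Markers of other cells moved in the same comparison, in which 20.8% of all tested genes rose and 19.6% fell. All 15 leukocyte markers tested rose, with a summed level of 191.5 to 297.8 CPM in amputated and 25.2 to 37.4 CPM in uncut libraries, or 120.1 to 162.0 CPM and 21.7 to 34.3 CPM without the collagenase gene mmp13a. Among them coro1a, an actin regulator of leukocytes, was at 20.4 ± 1.70 CPM and 3.86 ± 0.14 CPM (SD, n = 3 each), and rose by 2.40 ± 0.13 (SE) on the log2 scale with an edgeR adjusted p of 2.5e-07. No leukocyte marker was at 0 in all libraries. Of 14 blood and lymph vessel markers none rose and 2, egfl7 and fli1a, fell, with sums of 97.6 to 115.1 CPM and 127.0 to 132.4 CPM. The gap between these sums sat mostly in those 2 genes. The mean of egfl7 was 7.77 CPM after amputation and 21.4 CPM in uncut folds, and that of fli1a 21.8 and 29.4 CPM. The rest of the tested vessel markers were not called. Of 7 neuron and Schwann cell markers tested 1, gap43, fell (0.60 ± 0.14 lower on the log2 scale, edgeR adjusted p = 0.00503) and none rose. The call of fli1a was lost with library totals alone (edgeR adjusted p = 0.172), as was that of gap43 (0.0691). Of the other lists, 8 of 13 fin mesenchyme (61.5%), 9 of 14 superficial epidermis (64.3%) and 8 of 11 skeletal muscle genes (72.7%) fell and none rose. Among 15 basal epidermis genes 8 fell and 2 rose, and 1 gene moved each way among 8 xanthophore and 5 pericyte and smooth muscle genes. The part of any of these cells in the rise of ednrbb was not tested.

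Genes around the endothelin receptors were taken from 6 lists, in which 72 of 95 matched genes had enough reads to test. Of these, 10 rose and 20 fell, or 41.7%, close to the 40.4% of all tested genes. With the replicate number as a block, 14 rose and 24 fell, while over all tested genes 4125 rose and 4016 fell. With library totals alone the balance turned, with 19 higher and 11 lower, while over all tested genes 6821 were higher and 1636 lower on that scaling. The median log2 fold change of the 72 genes was −0.13, against 0.003 over all tested genes.

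Of 8 peptide processing genes tested, 1 rose and 2 fell, or 37.5%, near the 40.4% of all tested genes, with a median of −0.09. The gene ece2a, a relative of ece1, rose by 1.49 ± 0.38 (SE) with an edgeR adjusted p of 0.00814, from few reads: 0.792, 1.11 and 1.18 CPM in amputated libraries, against 0.461, 0.326 and 0.292 CPM in uncut libraries. Its abundant paralog ece2b, known in zebrafish for iridophore development, had 30.0, 35.2 and 34.0 CPM in amputated libraries, against 24.0, 40.0 and 41.4 CPM in uncut libraries. It was not called (−0.09 ± 0.16, edgeR adjusted p = 0.714), but passed downward without uncut replicate 1 (0.0236).

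The proprotein convertase furina, which zebrafish need for jaw patterning together with edn1, fell by 0.42 ± 0.09 (SE) with an edgeR adjusted p of 0.00321. Its levels were 74.9 ± 4.23 CPM after amputation and 100.2 ± 10.6 CPM in uncut folds (SD, n = 3 each). Another convertase, pcsk5b, fell by 0.52 ± 0.10 (SE; edgeR adjusted p = 0.00129). Both calls were lost when libraries were scaled by totals alone (edgeR adjusted p = 0.171 for furina and 0.0577 for pcsk5b), and on that scaling furinb and pcsk5a, not called otherwise, passed upward (0.00313 and 0.0272).

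The orphan receptors closest to the endothelin receptors in sequence did not follow ednrbb. That was likely beforehand, since ednrbb was selected on the size of its change. Of all tested genes 40.4% were called, and of gpr37a, gpr37b, gpr37l1a and gpr37l1b only gpr37b. It had 5.94, 4.28 and 4.27 CPM in amputated libraries, against 9.36, 10.1 and 10.3 CPM in uncut libraries, and fell by 1.04 ± 0.16 (SE) on the log2 scale with an edgeR adjusted p of 0.00032. The other 3 were at 0.04 ± 0.34 for gpr37a, −0.81 ± 0.34 for gpr37l1a and −0.39 ± 0.31 for gpr37l1b (edgeR adjusted p = 0.933, 0.074 and 0.342).

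Of 22 G protein and phospholipase C coupling genes tested, 2 rose and 7 fell, or 40.9%, near the 40.4% of all tested genes. Their median was −0.16. The Gq-class gene gna14 fell by 0.70 ± 0.10 (SE; edgeR adjusted p = 0.00022), to 30.1 ± 3.52 CPM in amputated folds against 48.7 ± 3.97 CPM in uncut folds (SD, n = 3 each). The inhibitory G protein gene gnai2b fell by 0.96 ± 0.10 (SE; edgeR adjusted p = 2.4e-05). The protein kinase C gene prkcea was lower by 0.54 ± 0.11 (SE; edgeR adjusted p = 0.00174). The phospholipase gene plcb3, which acts with edn1 in the zebrafish jaw, fell by 0.40 ± 0.09 (SE; edgeR adjusted p = 0.00415), a call lost with library totals alone (0.224). The 2 that rose were gnai2a, by 0.29, and the calcium release channel gene itpr1b, by 0.42. The call of gnai2a was lost without amputated replicate 1 (edgeR adjusted p = 0.0614), uncut replicate 2 (0.0552) or uncut replicate 3 (0.0619), and that of itpr1b without amputated replicates 2 (0.146) or 3 (0.0978) or uncut replicates 1 (0.0868) or 3 (0.0568).

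Of 11 tested genes that switch such receptors off, 2 rose and 3 fell, or 45.5%, against 40.4% of all tested genes. Their median was 0.07. The receptor kinase gene grk4 rose by 0.49 ± 0.10 (SE; edgeR adjusted p = 0.00164) and rgs3a, a G protein inhibitor gene, by 0.68 ± 0.14 (SE; edgeR adjusted p = 0.00161). The receptor kinase genes grk5 and grk5l fell by 1.05 ± 0.26 and 0.60 ± 0.14 (SE; edgeR adjusted p = 0.00685 and 0.00473), and the call of grk5l was lost with library totals alone (0.0637). The arrestin gene arrb2b was at −0.22 ± 0.08 (SE; edgeR adjusted p = 0.0374), a call that was lost in 7 of the refits tried and at an adjusted p under 0.01, and whose sign turned with library totals alone (0.037).

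**Figure D4:**
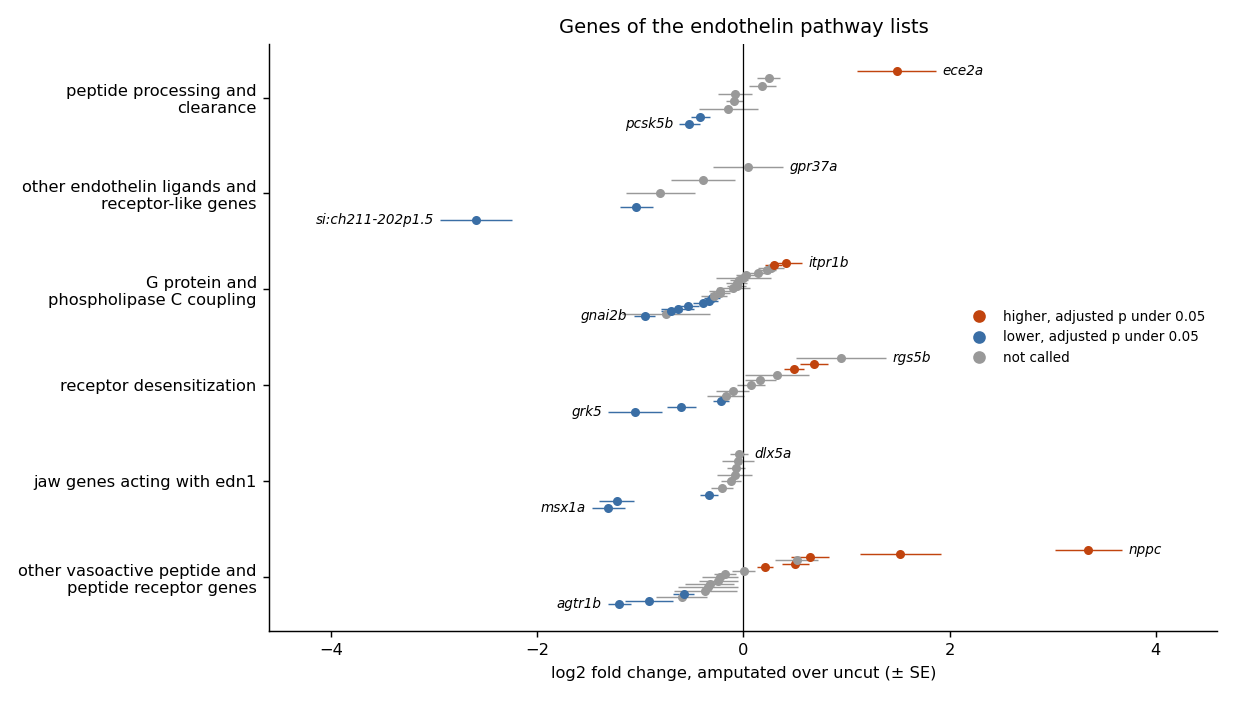
Log2 fold change, amputated over uncut, ± SE (horizontal axis) of the 72 tested genes of 6 lists, with called genes in colour (orange higher, blue lower) and the lowest and highest gene of each list named. Most points lie near 0, with si:ch211-202p1.5 (edn3a by its RefSeq synonym) at −2.60 and nppc at 3.35 at the ends.

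Genes that work with edn1 in the jaw were partly present in the fold. The arch genes hand2, barx1 and gsc had 4, 3 and 3 reads over the amputated group and 3, 11 and 0 over the uncut group, too few to test. Of 9 tested genes of this list 3 fell and none rose, or 33.3%, against 40.4% of all tested genes. Their median was −0.12. The homeobox genes msx1a and dlx4a fell by 1.31 ± 0.16 and 1.23 ± 0.17 (SE; edgeR adjusted p = 4.9e-05 and 0.00013), and dlx3b by 0.33 ± 0.09 (SE; edgeR adjusted p = 0.00994), the last lost with library totals alone (0.514). The jaw factor gene mef2ca was at −0.12 ± 0.10 (SE; edgeR adjusted p = 0.361).

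Among tested genes of other vasoactive peptide systems the largest rise was in a ligand gene. Of 17 genes tested, 5 rose and 3 fell, or 47.1%, against 40.4% of all tested genes. Their median was −0.23. The gene nppc, which encodes C-type natriuretic peptide, had 10.4, 9.52 and 6.67 CPM in amputated libraries, against 1.52, 0.465 and 0.681 CPM in uncut libraries. The groups of nppc were well apart, and it rose by 3.35 ± 0.33 (SE) on the log2 scale with an edgeR adjusted p of 1.1e-05. The other 4 that rose were vipr1b (1.52), npr1a (0.65), ramp2 (0.50) and npr3 (0.21), and the call of npr1a was lost without amputated replicate 2 (edgeR adjusted p = 0.0738). The call of npr3, a receptor gene that clears natriuretic peptides, was lost in 7 of the refits tried, with DESeq2 among them (adjusted p = 0.0776), and at an adjusted p under 0.01.

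Of 3 angiotensin receptor genes in this list, 2 fell and agtr1a, with 4 reads in the amputated group and 2 in the uncut group, was not tested. Of all tested genes 19.6% fell. The 3 were not a list set in advance, and nothing is read from their count. The gene agtr1b had 17.0, 18.1 and 19.7 CPM in amputated libraries, against 36.8, 48.2 and 40.9 CPM in uncut libraries, and fell by 1.20 ± 0.11 (SE; edgeR adjusted p = 8.3e-06). The gene agtr2 fell by 0.58 ± 0.10 (SE; edgeR adjusted p = 0.00078). The third gene that fell was vipr1a, a receptor for vasoactive intestinal peptide, by 0.92 ± 0.23 (SE, edgeR adjusted p = 0.008). Its paralog vipr1b is among the genes above that rose.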

How the data were processed

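Total RNA of fin folds was extracted with Trizol and made into libraries with a TruSeq RNA kit, per the labels' protocols. Per the submitters' processing notes the tools included TopHat, Cufflinks and DESeq2, with no version or role. The counter, genome build and annotation are not stated there or elsewhere in the sources. Per the file headers, the values were raw counts of each gene in each library, and the authors' normalized signal, equal to counts divided by a size factor per library (largest relative deviation 5.5e-10). Also deposited were the authors' log2 fold change, Wald score and p-values, raw and adjusted. No sequence of a gene was used here.

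The test was that of edgeR 4.0.16 (R 4.3.3), run on the counts: filterByExpr (minimum count 10, minimum total 15) kept 17883 genes, TMM scaled libraries, and glmQLFit and glmQLFTest compared groups with no covariate. Calls are at a Benjamini-Hochberg adjusted p under 0.05 over all tested genes. Fold changes are amputated over uncut, with the SE obtained by dividing the size of the log2 value by the root of F. For a large change that rests on few reads, as in ednrbb, this SE can be too small. The pipeline was tested on simulated counts.

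The members and lists were chosen with earlier results of these data known. Of 237 list genes, 225 were matched, 5 under another name. Named genes were the members, all tested genes of the processing and receptor-like lists, up to 4 of each other list by adjusted p, the 6 nearest profiles, and 3 neighbours on each side. Named after their values were seen were ramp2, npr1a, npr3, vipr1b, gnai2a, itpr1b, arrb2b, mef2ca, alpl, agtr1a, tp63, and1, and2, hand2, barx1 and gsc. Not every gene so named is reported. Markers of pericytes, superficial epidermis, xanthophores and muscle were also listed.

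Replicates of a group differed beyond sampling noise (chi-square per degree of freedom 4.45 to 15.6). Same-numbered libraries of both groups deviated together (correlations 0.269, 0.218 and 0.154), so the numbers may pair libraries, judged from the data alone. The labels do not say what a number shares. The main fit, its SE and its adjusted p therefore left libraries unpaired, and pairing entered only as an alternative. Alternatives were DESeq2 1.42.0, its size factors, library totals alone, no filter, a stricter threshold of 0.01, a floor of 5 CPM on the mean, a replicate block, and each library left out.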

Additional observations from a re-analysis of the deposited data

How the results depend on the processing

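The log2 fold change of ednrbb was 5.57 to 5.84 under other settings and 5.30 to 5.74 with a library left out. With library totals alone ednraa was at 0.26, edn3b at −0.55 and ece1 at 0.77, shifts near the 0.26 of all genes, and 6821 genes were called higher and 1636 lower, with 19 and 11 of the pathway lists. At an adjusted p under 0.01 there were 2283 lower genes and 6 higher pathway genes. With a floor of 5 CPM on the mean, 0 of the 8 endothelin genes were called lower, since the mean of edn3b lay below it. With the replicate number as a block 4125 genes were higher and 4016 lower, ednrbb was at 5.59, and no call among the 8 changed. Values turned sign with library totals alone for pcsk2 (0.11), pcsk7 (0.17), ece2b (0.17), lect1 (0.12) and arrb2b (0.037); with a library left out they ran from −0.32 to 0.0022 for pcsk2, −0.29 to 0.031 for ece2b and −0.20 to 0.20 for gpr37a. At the read counts of edn1, edn2 and ednrab, moderate changes could have been missed, and no detection limit was computed.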
